A study of Homo sapiens with 3 samples.

Results

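Small nucleolar RNA host genes are genes whose introns carry small nucleolar RNAs (snoRNAs). They were taken as every gene of the count table whose symbol was SNHG followed by a number, together with GAS5, ZFAS1, EPB41L4A-AS1 and DANCR. The rule found 28 genes of 58735 in the table, on 14 chromosomes, all annotated as noncoding. Poly(A)-selected RNA was sequenced in 3 libraries from RPE-1, a telomerase-immortalised line of human retinal pigment epithelium. The cells carried centrin 2 tagged with GFP, which marks centrioles, and a PLK4 gene driven by rtTA and doxycycline. All 3 libraries came from cells given a scramble siRNA with no induction of PLK4, so they form 1 group and no condition could be compared. The labels do not say whether they came from separate cultures, so p-values here describe how these 3 samples differ among themselves, and that difference may be technical.

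Most snoRNAs are cut from introns of a longer host transcript. Box C/D snoRNAs guide 2′-O-methylation and box H/ACA snoRNAs guide pseudouridylation, mainly of ribosomal RNA, while the related small Cajal body RNAs guide the same marks on spliceosomal RNAs. The hosts are spliced and polyadenylated. Many of them open with a run of pyrimidines like that of ribosomal protein mRNAs, the 5′ terminal oligopyrimidine (TOP) tract, and several are degraded by nonsense-mediated decay in the cytoplasm. A poly(A) library therefore reads the spliced host and not the mature snoRNA.

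The libraries held 49279692, 60040029 and 46625774 counts. Of the markers set for a check of the cell type, the mesenchymal genes VIM, FN1 and CDH2 and the keratins KRT8 and KRT18 were detected, as were the pigment epithelium genes BEST1, MITF and OTX2. RPE65, CDH1, EPCAM, CD14 and ALB had at most 9 counts in any library, and TYR, HBB, CD3E and RBFOX3 had none. Of the markers of other cells, SYT1 (90.6 CPM), SNAP25 (7.01 CPM) and PTPRC (2.06 CPM) were detected. Over all genes library 1 was the farthest from the other libraries in 66.4% of the genes whose spread exceeded counting noise.

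A gene was called detected with at least 1 CPM (counts scaled to a common library size with TMM factors) in each library. Of the 28 host genes 23 were detected. Together the 28 genes took 581, 616 and 638 CPM in libraries 1, 2 and 3 (mean 611 ± 28.8 SD, n = 3), and library 1 was the lowest. SNHG16 and GAS5 alone held 33.6% of that sum. In bulk RNA, fewer cells that express a gene and less RNA per cell cannot be told apart.

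Levels per unit of length are given as RPKM, CPM per kb of all bases annotated as exonic in the gene. The median over the 23 detected host genes was 5.02 RPKM. The median was 1.35 RPKM over the 693 detected long noncoding genes and 6.09 RPKM over the 11508 detected protein-coding genes. Of the 23 host genes 18 stood above the long noncoding median and 11 above 90% of the long noncoding genes, but only 2 stood above 90% of the protein-coding genes. With the length of the longest annotated transcript in place of this, the median of the host genes was 8.60 RPKM. The medians of the long noncoding and protein-coding genes were not redone with that length, so 8.60 RPKM cannot be set against them. These percentiles describe the libraries and were not tested.

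**Figure D1:**
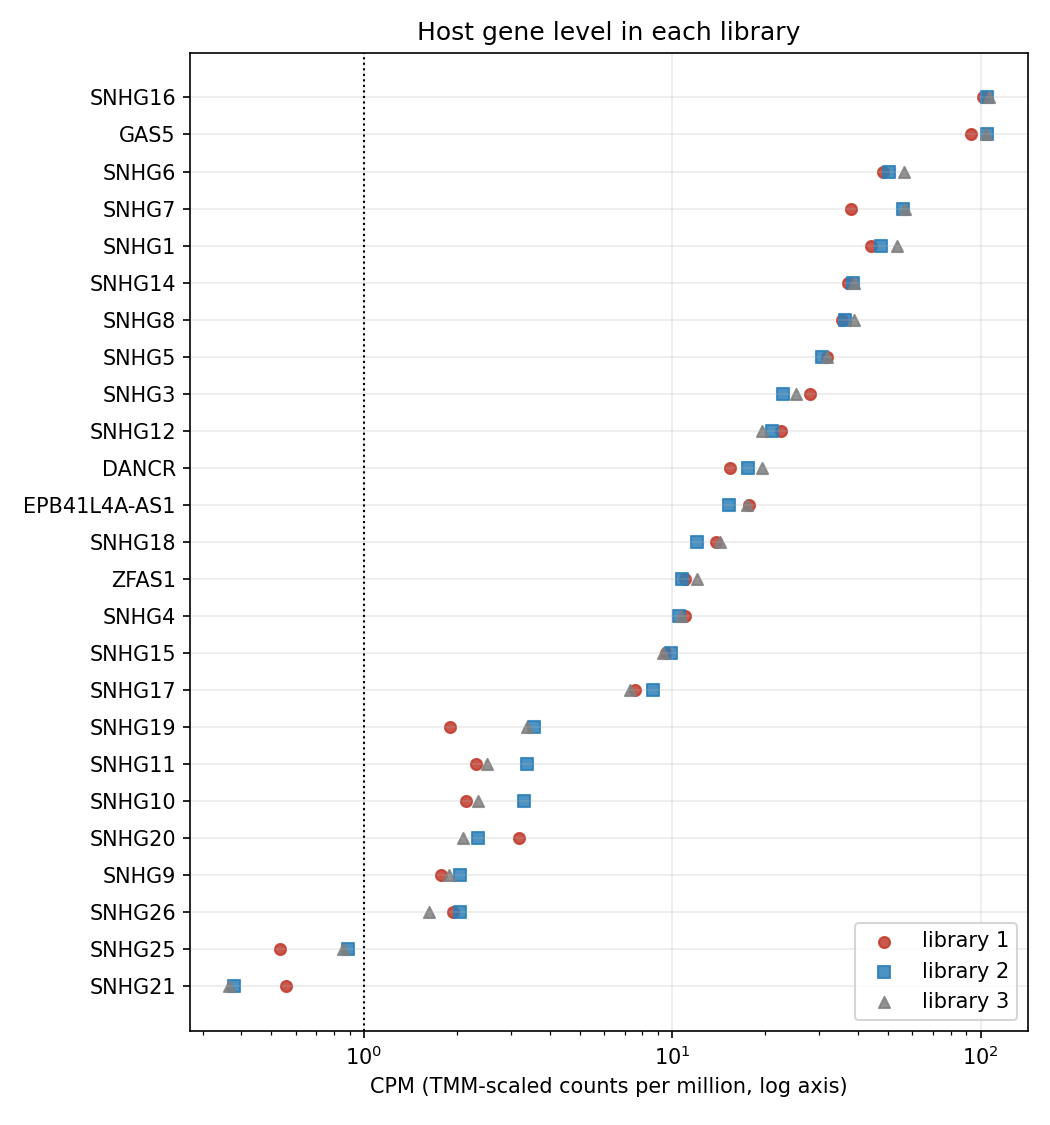
CPM (log axis) of the 25 host genes whose mean count reached 10, ordered by mean, with 1 point per library and the detection limit of 1 CPM as a dotted line. SNHG16 and GAS5 lie at about 100 CPM in every library, while SNHG25 and SNHG21 lie below 1 CPM in every library.

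Among hosts of box C/D snoRNAs alone all 9 were detected, with a median of 8.60 RPKM. SNHG6 (chromosome 8, 66921684 to 66926398, hg38, minus strand), the host of SNORD87, had 48.3, 50.5 and 56.5 CPM (41.5 ± 3.37 RPKM, SD, n = 3). Per exon length it had the highest mean of the host genes, with a range that overlapped that of SNHG8, while by CPM SNHG16 and GAS5 were higher. SNHG16 (chromosome 17, 76557766 to 76565348, plus strand), the host of the SNORD1 family, had 102, 105 and 107 CPM (19.5 ± 0.459 RPKM). It had the most counts of all host genes, and its libraries lay within 5% of each other, as did those of SNHG5 and SNHG14.

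SNHG1 (chromosome 11, 62851988 to 62855914, minus strand), with 8 box C/D snoRNAs in RefSeq, had 44.2, 47.4 and 53.5 CPM (12.9 ± 1.27 RPKM). SNHG5 (chromosome 6, 85660950 to 85678748, minus strand), the host of SNORD50A and SNORD50B, had 31.7, 30.6 and 31.7 CPM (11.2 ± 0.243 RPKM). The 3 libraries of SNHG5 were nearly equal, and library 2 was marginally the lowest. SNHG14 (chromosome 15, 24978583 to 25419462, plus strand), the long transcript of the Prader-Willi region that carries the SNORD115 and SNORD116 clusters, had 37.2, 38.6 and 38.9 CPM. Its annotated exons span 43324 bases, so that its level per length was only 0.883 ± 0.0215 RPKM, or 2.93 RPKM with the longest transcript.

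The other box C/D hosts were lower. SNHG18 had 13.9, 12.0 and 14.3 CPM, and ZFAS1, an RNA antisense to ZNFX1, had 10.96, 10.7 and 12.0 CPM. SNHG19, a host of only 342 exonic bases, had 1.90, 3.56 and 3.38 CPM, so that it stood at 8.60 ± 2.66 RPKM on few counts. SNHG26 was the lowest of the class at 1.94, 2.04 and 1.62 CPM (0.711 ± 0.0825 RPKM).

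To show what host genes carry, snoRNAs of SNHG1 and SNHG5 and the one with most counts are given from GENCODE release 29, 5′ to 3′ as DNA. In that release SNORD25, SNORD27 and SNORD50B lie inside an annotated exon of their host. Capitals mark the C box (TGATGA, searched in the first 20 bases) and the D box (CTGA, searched in the last 20 bases), on the RNA's own strand.
SNORD25 (SNHG1, chr11:62855564-62855632, minus): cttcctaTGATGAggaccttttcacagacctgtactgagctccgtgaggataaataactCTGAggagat
SNORD27 (SNHG1, chr11:62855012-62855083, minus): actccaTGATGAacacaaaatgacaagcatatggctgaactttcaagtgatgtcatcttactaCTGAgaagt
SNORD30 (SNHG1, chr11:62853663-62853732, minus): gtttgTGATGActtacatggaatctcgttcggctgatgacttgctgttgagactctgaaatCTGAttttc
SNORD50B (SNHG5, chr6:85677589-85677658, minus): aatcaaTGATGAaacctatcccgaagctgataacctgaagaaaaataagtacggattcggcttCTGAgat
SNORD104 (SNHG25, chr17:64146083-64146152, plus): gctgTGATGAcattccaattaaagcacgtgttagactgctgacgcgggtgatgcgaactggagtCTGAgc
Of 101 SNORD genes inside the host genes with a sequence of the annotated length, 86 held TGATGA and 97 held CTGA in these windows, and 83 held both. SNORD87 of SNHG6 was left out of this search. A missing match says only that these letters are not in the window.

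All 10 hosts of box H/ACA snoRNAs alone were detected, with a median of 4.23 RPKM. SNHG8 (chromosome 4, 118278709 to 118279823, plus strand), the host of SNORA24, had 35.4, 36.4 and 38.7 CPM (39.9 ± 1.83 RPKM), and its range overlapped that of SNHG6 per length. SNHG7 (chromosome 9, 136721366 to 136728184, minus strand), the host of SNORA17A and SNORA17B, had 37.9, 55.9 and 56.7 CPM (11.5 ± 2.45 RPKM). Library 1 was far below libraries 2 and 3, which nearly coincided.

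DANCR (chromosome 4, 52712404 to 52720351, plus strand), named for its role against differentiation of progenitor cells and the host of SNORA26, had 15.4, 17.6 and 19.5 CPM (7.66 ± 0.899 RPKM). SNHG3, the host of SNORA73A and SNORA73B, had 27.999, 22.8 and 25.2 CPM, and EPB41L4A-AS1, the host of SNORA13, had 17.7, 15.3 and 17.4 CPM. In both of these library 1 was the highest and library 2 the lowest. The remaining 5 hosts of the class, SNHG9, SNHG15, SNHG4, SNHG17 and SNHG11, stood between 0.970 and 3.44 RPKM. SNHG9 had 86, 124 and 88 counts, so its 3.44 ± 0.246 RPKM rests on a short exon length of 551 bases.

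H/ACA snoRNAs are longer and end in an ACA box near the 3′ end. SNORA24 of SNHG8, which lies inside an annotated exon of its host, and SNORA13 of EPB41L4A-AS1 are given from the same release. The ACA is in capitals.
SNORA24 (SNHG8, chr4:118279190-118279320, plus): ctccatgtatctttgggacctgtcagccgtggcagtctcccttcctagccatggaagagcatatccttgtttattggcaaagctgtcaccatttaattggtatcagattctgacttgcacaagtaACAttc
SNORA13 (EPB41L4A-AS1, chr5:112161485-112161617, plus): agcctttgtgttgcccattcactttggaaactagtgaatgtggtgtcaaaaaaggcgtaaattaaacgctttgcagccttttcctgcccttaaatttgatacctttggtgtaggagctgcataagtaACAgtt
Among 26 H/ACA and Cajal body RNA entries of the host genes with such a sequence, 23 held ACA in the last 8 bases. In 16 of these exactly 3 bases followed it. SNORA16A and SNORA17B each have overlapping entries among the 26. The median length was 134 bases, against 82 bases for the SNORD genes.

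Hosts of both kinds were GAS5, SNHG12 and SNHG25. GAS5 (growth arrest specific 5, chromosome 1, 173863900 to 173868882, minus strand), known to accumulate in growth-arrested cells and with 10 SNORD genes and 1 SNORA gene in RefSeq, had 93.0, 105 and 104 CPM (27.7 ± 1.84 RPKM). Library 1 was the low one, and its 4513 counts correspond to 91.6 CPM of the unscaled library total (exact binomial 95% interval 88.9 to 94.3). SNHG12 had 22.5, 21.1 and 19.5 CPM (4.93 ± 0.350 RPKM). SNHG25 fell below detection with 26, 54 and 40 counts, and 48.6% of its exonic bases also belong to a small RNA entry inside it.

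Hosts of small Cajal body RNAs were the lowest class. SNHG10, the host of SCARNA13, had 2.14, 3.29 and 2.35 CPM (1.33 ± 0.315 RPKM), and SNHG20, the host of SCARNA16, had 3.19, 2.34 and 2.09 CPM (0.418 ± 0.0948 RPKM). SNHG21 had 27, 23 and 17 counts, below detection, with 72.9% of its exonic bases also annotated to AC105339.2, a noncoding gene on its strand. SNHG22 had 0, 2 and 0 counts. The remaining SNHG27 and SNHG28, for which RefSeq places no named small RNA inside the gene, had no counts in any library. All exonic bases of SNHG28 also belong to a second entry of the same name on its strand. How reads over such bases were assigned is not given, so its lack of counts is not evidence of absence. For counting error only, 0 counts leave room for 3 counts, which is 0.0609, 0.04997 and 0.0643 CPM of the unscaled totals of libraries 1, 2 and 3.

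**Figure D2:**
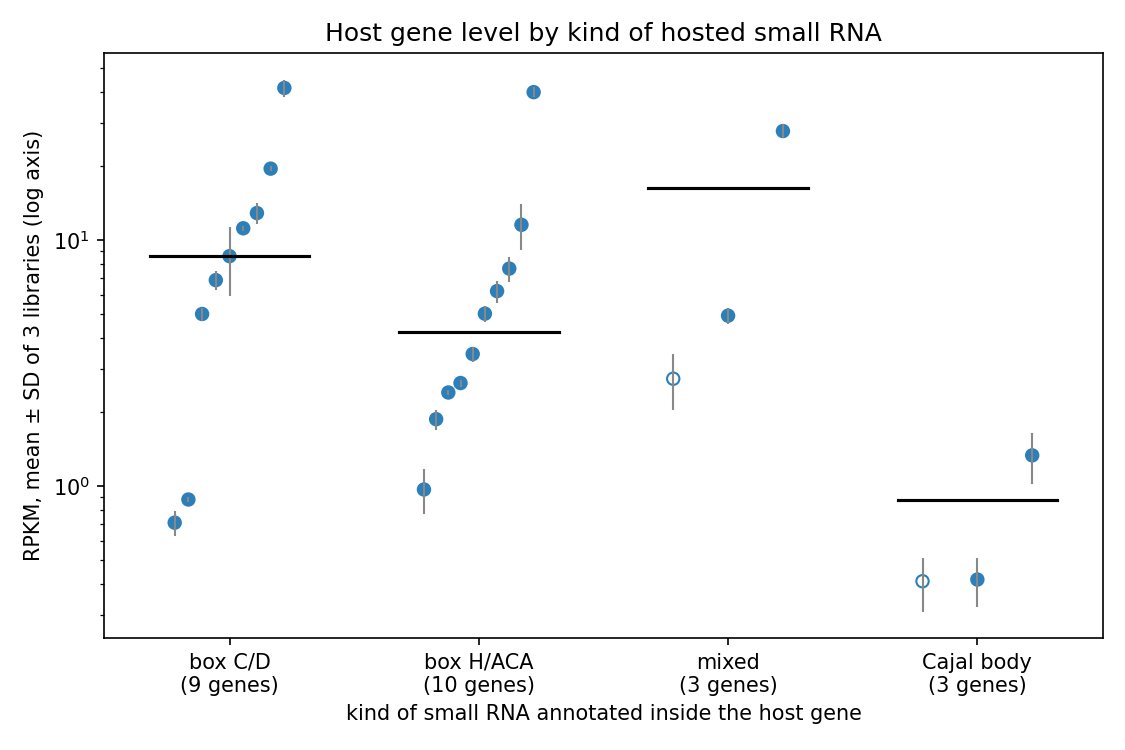
RPKM (log axis, mean ± SD of 3 libraries) of the 25 host genes whose mean count reached 10, by the kind of small RNA that RefSeq places inside them. Filled points are detected genes, open points lie below detection and the bar is the median of the detected genes, which is 8.60 RPKM for box C/D hosts, 4.23 RPKM for box H/ACA hosts, 16.3 RPKM for the 2 detected hosts of both kinds and 0.876 RPKM for the 2 detected Cajal body hosts.

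The classes overlapped widely, since box C/D hosts ran between 0.711 and 41.5 RPKM and box H/ACA hosts between 0.970 and 39.9 RPKM. In the order of all 23 detected host genes by RPKM, the 3-library ranges of 10 of the 22 adjacent pairs overlapped. SNHG6 and SNHG8 overlapped. SNHG7 overlapped both SNHG1 and SNHG5, whose own ranges were separate. In the run of SNHG19, DANCR, SNHG18 and SNHG3 every pair overlapped, as in EPB41L4A-AS1, ZFAS1 and SNHG12. SNHG11 overlapped both SNHG10 and SNHG14, whose own ranges were separate. GAS5 and SNHG16 each stood clear of both neighbours. The order also depended on length, since SNHG5 moved to the fourth place and SNHG19 to the 12th with the longest transcript.

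The small RNA genes inside the hosts had few counts. The table held 137 snoRNA and Cajal body RNA entries inside the host genes on the same strand, 84 of them in SNHG14. Some entries cover the same RNA, such as RF00345 and SNORD60 in SNHG19. Of these, 31 had a count in any library and 106 had none, among them all 41 that lie inside an annotated exon of their host. The hosts took 95411 counts over the 3 libraries, against 678 counts for these small RNA genes. SNHG25 had 26, 54 and 40 counts, fewer in every library than the 55, 89 and 48 counts of the SNORD104 inside it. SNORA73B of SNHG3 had 6, 24 and 43 counts, although SNHG3 itself was highest in library 1. SNORA71B of SNHG17 had 10, 23 and 25 counts. A poly(A) library does not read the mature snoRNA, so counts on these genes do not measure it. Which transcripts gave the counts was not tested.

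The counts were then split by where the small RNA lies relative to annotated exons. Of the 41 small RNA entries that lie wholly inside an annotated exon of their host, such as those of retained-intron transcripts, 0 had a count. Of the other 96, 31 had one. Over the whole table the same split gave 0 of 158 such genes inside an exon of another gene on the same strand, against 190 of 834 (22.8%) outside one. All but 1 of the small RNA genes of SNHG1 in GENCODE belong to the first kind, and small RNA genes take up 15.3% of the exonic bases of SNHG1. How reads over such stretches were assigned is not given in the sources used here. A count of 0 inside an exon therefore does not measure the small RNA.

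Overlap with other genes differed between hosts. On the same strand, 20 of 28 host genes shared some exon sequence, and 5 shared at least 20%. In SNHG9 (23.0%) the shared bases belong to SNORA78 inside the gene, and SNHG28 (100%) lies wholly under a second entry of the same name. In ZFAS1 (20.9%) they belong to SNORD12 and to RF02215, RF02216 and RF02217, which are annotated as miscellaneous RNA. SNHG3 shares exon sequence with RCC1, which stood at 51.0 CPM, and SNHG20 with SEC14L1 at 115 CPM. On the opposite strand EPB41L4A-AS1 shares 49.6% of its exon length with EPB41L4A, which had only 0.0735 CPM. SNHG28 shares 42.1%, SNHG21 34.1%, SNHG16 30.6%, SNHG6 29.3% (with MCMDC2, 0.0702 CPM) and ZFAS1 26.1%. SNHG7 shares 25.2% with FAM69B, whose level was not examined. ZFAS1 overlaps ZNFX1 at 147 CPM, and SNHG10 shares 20.1% with GLRX5 at 38.4 CPM, so reads of these pairs cannot be told apart without the strand setting.

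Some host genes begin next to a gene on the other strand. Within 1000 bases of the start of a detected host gene, 8 genes began on the opposite strand, beside 7 hosts, and 6 of them were detected, all protein-coding. SNHG9 begins 99 bases from the start of the ribosomal protein gene RPS2, and had 1.90 CPM, against 1942 ± 56.0 CPM for RPS2. ZFAS1 stood at 11.2 CPM, against 147 CPM for ZNFX1, and SNHG1 at 48.4 CPM, against 122 ± 23.4 CPM for SLC3A2, an amino acid transporter chain whose start lies 188 bases away. Of the 8 neighbours, 5 had more counts than the host. GAS5 was the reverse, with 101 CPM, against 9.26 CPM for ZBTB37.

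The spread of each gene over the 3 libraries was set against counting noise by a chi-square test, with Benjamini-Hochberg adjustment over the 16293 genes whose mean count reached 10. Of the 25 host genes that passed this filter, 15 had a spread beyond counting noise (60%), beside 68.6% of all genes tested and 47.4% of the 2213 long noncoding genes tested. The share of host genes was thus close to the background. The median ratio of the highest to the lowest library was 1.19 over these 25 genes and 1.246 over all tested genes. When every gene was granted an extra coefficient of variation of 0.05, SNHG7, SNHG10, SNHG19, SNHG20 and SNHG11 were called, 5 of 25, beside 32.5% of all genes.

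SNHG7 had the smallest adjusted p (6.29e-48, chi-square test) and SNHG19 the widest ratio of highest to lowest library (1.88, adjusted p = 2.08e-06). Both were lowest in library 1, by 0.57 and 0.73 on the log2(CPM + 0.5) scale relative to the mean of libraries 2 and 3. Without library 1, 8 of 25 host genes passed, beside 28.1% of all genes. Neither of these did (adjusted p = 0.739 for SNHG7 and 0.767 for SNHG19, chi-square test). GAS5 (adjusted p = 8.46e-10) and DANCR (2.63e-05) were also lowest in library 1 and did not pass without it (0.951 and 0.0671). SNHG1 (7.21e-10) and SNHG6 (2.44e-07) were highest in library 3. Without library 3, 14 host genes passed, beside 60.7% of all genes. SNHG6 did not pass there (adjusted p = 0.0620), while SNHG1 passed without any 1 library.

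SNHG20 (adjusted p = 0.00306, chi-square test) stood the other way, highest in library 1, and did not pass without it (0.583). SNHG10 (0.000800) and SNHG11 (0.00293) were highest in library 2 and did not pass without it (0.581 and 0.625). Without library 2, 11 host genes passed, beside 56.8% of all genes. SNHG3 (1.96e-06) was highest in library 1 and passed without any 1 library. SNHG18, EPB41L4A-AS1 and SNHG17 did not pass without library 2 (adjusted p = 0.685, 0.818 and 0.699, chi-square test). SNHG12 did not pass without library 1 or without library 3 (0.176 and 0.260), and neither did SNHG8 (0.129 and 0.311).

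Of the 25 host genes tested, 9 were called and lowest in library 1 (36%), beside 33.4% of all tested genes. A further 4 were called and highest in library 1 (16%), beside 27.9% of all tested genes. Library 1 was the farthest from the others in 6 of the 15 called host genes (40%), beside 66.4% of all called genes, library 2 in 5 and library 3 in 4. The median difference of library 1 from the mean of libraries 2 and 3 was -0.06 over the 25 host genes and -0.02 over all tested genes (log2). The 10 tested host genes that did not pass included SNHG16 (adjusted p = 0.0855), SNHG14 (0.377), SNHG5 (0.484) and ZFAS1 (0.173, chi-square test). SNHG16 passed without library 2 (0.0368), without library 3 (0.0486) and with unscaled library totals (0.00313), where 16 host genes passed, beside 69.3% of all genes.

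**Figure D3:**
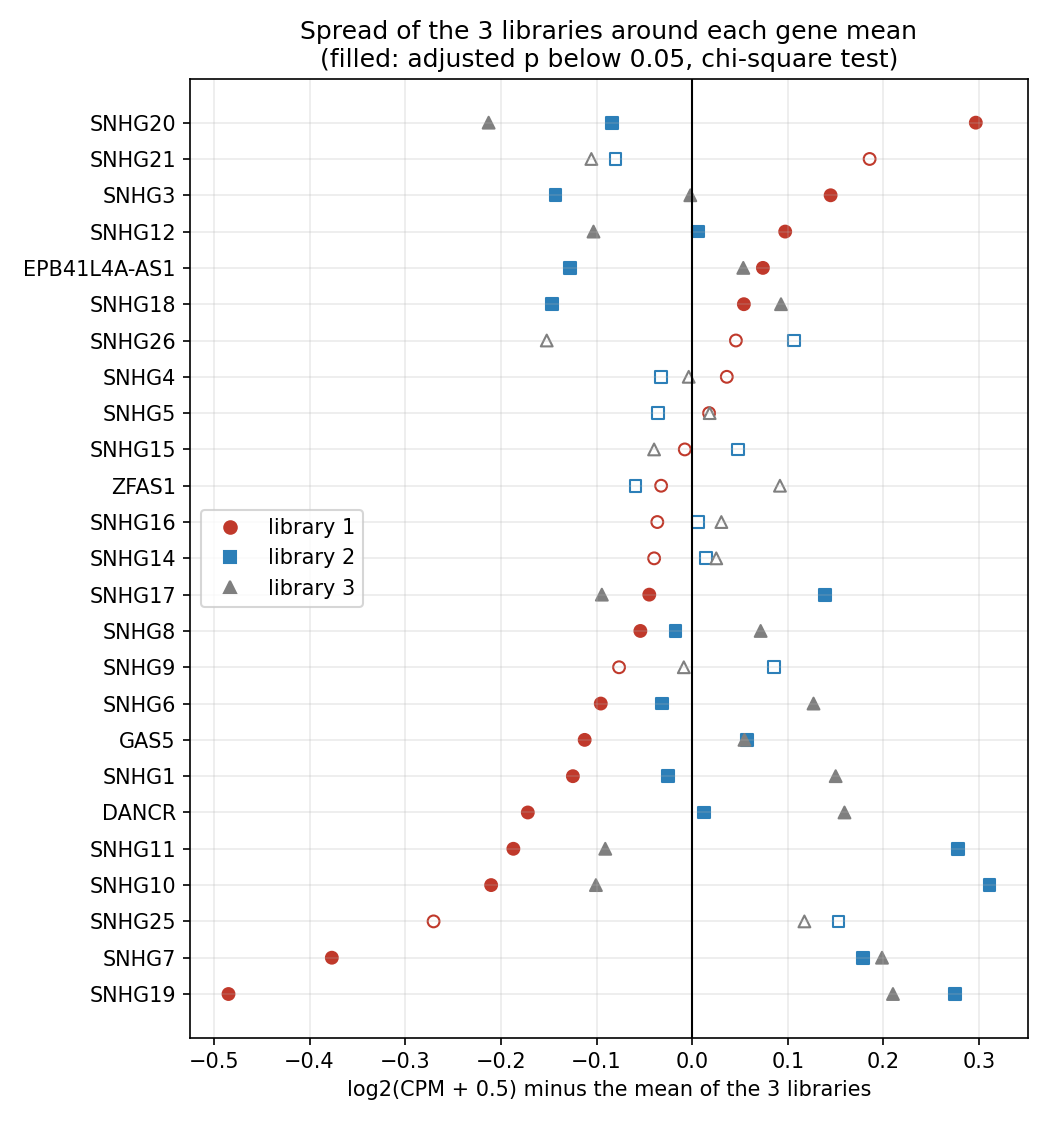
Deviation of each library from the gene mean in log2(CPM + 0.5) for the 25 host genes tested, ordered by the difference of library 1 from the others. Filled symbols mark the 15 genes that passed the chi-square test. SNHG19 and SNHG7 lie farthest to the left in library 1, and SNHG20 farthest to the right.

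The other genes of the pathway were taken from 3 lists. All 17 genes of snoRNP proteins and their assembly factors were detected, with a median of 14.8 RPKM. NOP10 (138 ± 3.87 RPKM), a small H/ACA protein, and FBL (49.6 ± 0.860 RPKM), the methyltransferase fibrillarin, were the highest, and NAF1, an H/ACA assembly factor, was the lowest (2.70 ± 0.265 RPKM). A spread beyond counting noise was found in 13 of 17, beside 68.6% of all tested genes. It was found in 4 of 17 without library 1, beside 28.1% of all tested genes. With the extra coefficient of variation it was also found in 4 of 17, beside 32.5%. Of the 17 genes 9 were called and highest and 4 called and lowest in library 1, beside 27.9% and 33.4% of all tested genes. The widest was ZNHIT6, a box C/D assembly factor, with 39.5, 27.0 and 27.98 CPM, high in library 1. NOP10 and FBL did not pass (adjusted p = 0.0511 and 0.255, chi-square test).

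All 14 decay and exon junction genes were detected, with a median of 10.9 RPKM. SMG5 (18.5 ± 2.46 RPKM) and the exon junction gene RBM8A (18.4 ± 3.16 RPKM) were the highest and SMG1, the kinase of the pathway, was the lowest (2.59 ± 0.0937 RPKM). Of these genes 13 of 14 passed, beside 68.6% of all tested genes. Without library 1, 4 of them passed, beside 28.1% of all tested genes. With the extra coefficient of variation 6 passed, beside 32.5%. The widest was UPF3B, with 42.2, 28.99 and 34.7 CPM.

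The noncoding hosts had a median of 5.02 RPKM, against 131 RPKM for a chosen list of 40 protein-coding hosts, all of which were detected. Most genes of that list encode ribosomal proteins, so its median does not stand for protein-coding hosts at large. RPS2 (805 ± 23.2 RPKM) and EEF2 (763 ± 45.7 RPKM) were the highest. EIF4A1 was the lowest (0.818 ± 0.271 RPKM) and the widest, with 291, 227 and 155 counts, and 48.6% of its exonic bases also belong to SENP3-EIF4A1 and other entries on its strand. Of the 40 genes 39 passed, beside 68.6% of all tested genes. Without library 1, 22 of the 40 passed, beside 28.1% of all tested genes. With the extra coefficient of variation 15 passed, beside 32.5%. In library 1, 23 of the 40 were called and lowest and 12 called and highest, beside 33.4% and 27.9% of all tested genes. The counts of these genes are far higher than those of the noncoding hosts, which lets smaller differences pass. Reads of ribosomal protein genes can also fall on their pseudogenes, so their counts are uncertain. NOP56 and DKC1 are on both this list and the snoRNP list.

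**Figure D4:**
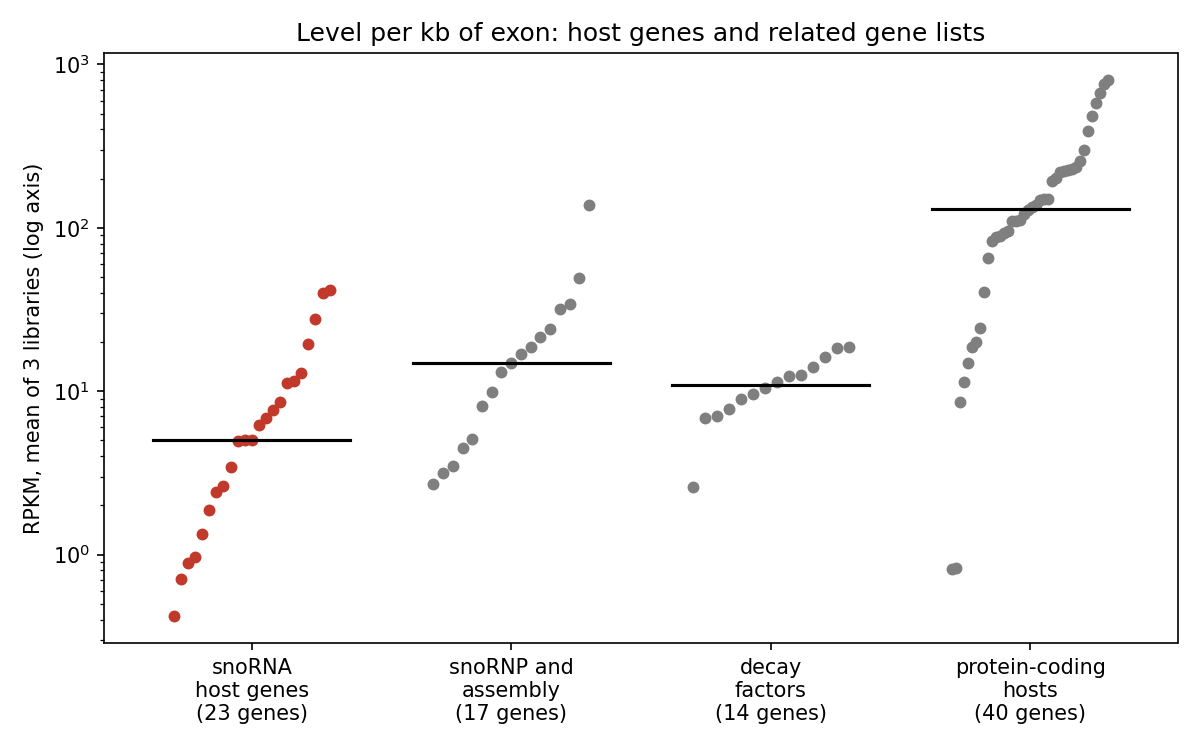
RPKM (log axis, mean of 3 libraries) of the detected snoRNA host genes and of the detected genes of the 3 related lists, with the median as a bar. The medians are 5.02 RPKM for the 23 noncoding hosts, 14.8 for snoRNP genes, 10.9 for decay factors and 131 for protein-coding hosts. The last list holds mostly ribosomal protein genes.

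Annotated starts were available for 24 of the 28 host genes, as RefSeq promoter windows on GRCh38.p14. SNHG6, SNHG9, SNHG15 and SNHG25 had no such window. A pyrimidine start was defined as C at the annotated first base followed by at least 4 bases that are each C or T. It was found in 6 of the 24 host genes (25%), 15 of 31 matched protein-coding hosts (48.4%) and 1429 of 35116 promoters in the table (4.07%). Most genes of the protein-coding host list encode ribosomal proteins, whose mRNAs are known for the TOP tract. The share in that list therefore follows in part from the choice of its genes. The windows below hold 20 bases before and 20 bases from the start, with the run of C and T that opens the transcript in capitals. The first 5 have such a start, and SNHG1 and SNHG8, both well expressed, have shorter runs.
SNHG5 (chr6:85678714-85678753, minus): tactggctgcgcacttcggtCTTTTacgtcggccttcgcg
ZFAS1 (chr20:49278622-49278661, plus): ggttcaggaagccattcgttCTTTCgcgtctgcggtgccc
SNHG19 (chr16:2155339-2155378, minus): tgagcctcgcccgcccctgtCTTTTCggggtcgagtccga
SNHG12 (chr1:28581854-28581893, minus): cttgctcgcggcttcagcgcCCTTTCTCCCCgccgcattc
SNHG4 (chr5:139274081-139274120, plus): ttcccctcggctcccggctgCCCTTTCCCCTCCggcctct
SNHG1 (chr11:62855866-62855905, minus): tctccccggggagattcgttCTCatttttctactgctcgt
SNHG8 (chr4:118278742-118278781, plus): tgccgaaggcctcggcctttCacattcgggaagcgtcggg
The sixth host gene with such a start was SNHG18. All 6 were detected, at levels between 2.40 and 11.2 RPKM. Among GENCODE release 29 transcripts, 33 of 252 from the host genes opened in this way (13.1%), against 4979 of all 206694 transcripts (2.41%). The 33 came from 14 of the 28 genes. The share of all genes with any such transcript was not counted, so that number has no background here. By GENCODE transcripts GAS5 (6 of 29), SNHG16 (2 of 8), SNHG8 (1 of 5) and SNHG1 (1 of 25) also had such starts. So did SNHG3 (1 of 3) and SNHG11 (1 of 15). None of these genes had such a start in RefSeq. Of the genes without a RefSeq window, SNHG6 (41.5 RPKM) had 3 of 5 such transcripts and SNHG25 had 2 of 2. An annotated start need not be the one used in these cells, and the counts do not resolve it.

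**Figure D5:**
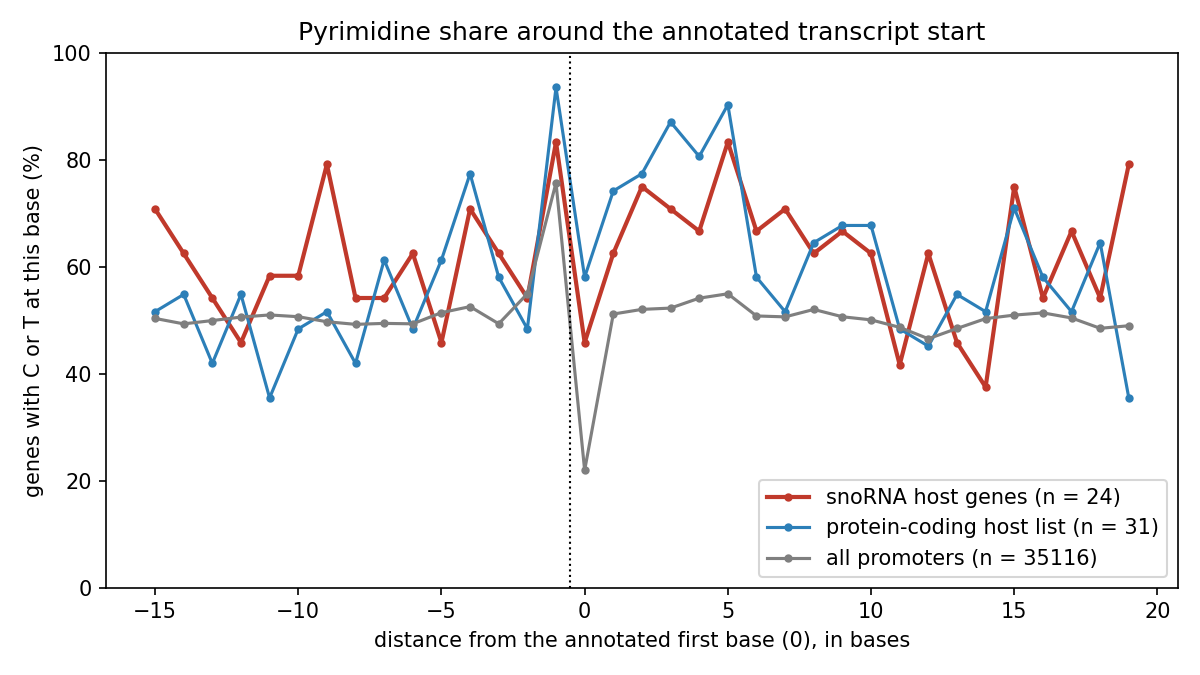
Share of genes with C or T at each base around the annotated first base (position 0), for 24 snoRNA host genes, 31 protein-coding hosts and all 35116 promoters of the table. At the first base the share was 45.8% in the snoRNA host genes, 58.1% in the protein-coding hosts and 21.9% in all promoters. Most genes of the protein-coding host list encode ribosomal proteins.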

How the data were processed

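The table deposited by the authors gives raw read counts for each gene as whole numbers, with no normalisation. Per the submitters' processing notes the tools were cutadapt 1.16, STAR 2.5.2a and featureCounts 1.6.2 with hg38; the sources used here do not give their settings, annotation or strand option. The table held 6 further columns of per-sample values that matched no label given here and were not used.

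All 58735 gene identifiers matched GENCODE release 29, which gave positions and exon lengths. TMM factors came from edgeR 4.0.16 in R 4.3.3. The chi-square test has 2 degrees of freedom and compares a gene's 3 counts with the scaled library sizes, at an adjusted p threshold of 0.05. It was tested on simulated data. Reads are not independent molecules, so intervals and floors cover counting error only. Alternatives were size factors from DESeq2 1.42.0, unscaled totals, each library left out, a wider variance, no count filter and another length. Small RNAs inside host genes were taken from GENCODE and, for the classes of host, from RefSeq. Detected host genes are named, and of each list the 2 highest, the lowest and the widest called gene; NOP10 and FBL also have their p-values. The host genes and lists were chosen with earlier results of these data known, and the classes of host, the exon overlap and the start sequences were examined after the values were seen.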

Additional observations from a re-analysis of the deposited data

How the results depend on the processing

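The numbers of host genes called and detected, their median level and their sum stayed within the limits set (1.5 times for a count, 1 SD between libraries for a level) with DESeq2 size factors and with unscaled totals, and the counts also without a filter on counts. With a coefficient of variation of 0.05 allowed per gene, 5 host genes, 4 snoRNP genes, 6 decay factor genes and 15 protein-coding host genes were called, instead of 15, 13, 13 and 39. Of all tested genes 32.5% were called in that setting, instead of 68.6%. Leaving out 1 library gave 8 to 14 called host genes, 4 to 14 snoRNP genes, 4 to 13 decay factor genes and 22 to 38 protein-coding host genes, with the lowest number in each case without library 1, where 28.1% of all tested genes were called. The median level was 8.60 RPKM with the longest transcript and 4.19 RPKM over every host gene, and 20 of 23 single levels moved by more than their SD with that length. Without a filter on counts SNHG8 and SNHG17 did not pass (adjusted p = 0.0512 and 0.0528, chi-square test). No paired analysis was possible because the labels give only 1 group. Depth limits the hosts below about 2 CPM, such as SNHG26 in library 3 (exact binomial 95% interval 1.28 to 2.04 CPM of the unscaled total).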

Other observations

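The RefSeq starts of GAS5 and EPB41L4A-AS1 both follow directly on the letters GAATTC, the recognition sequence of the restriction enzyme EcoRI, shown here in capitals within 20 bases before and 20 bases from the start.
GAS5 (chr1:173869026-173869065, minus): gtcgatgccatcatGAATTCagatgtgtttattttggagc
EPB41L4A-AS1 (chr5:112160506-112160545, plus): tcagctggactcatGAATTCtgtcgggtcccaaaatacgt
This was the case in 2 of 24 host genes and in 19 of the 35116 promoters of the table (0.0541%). The RefSeq start of GAS5 lies 163 bases from its GENCODE start, and that of EPB41L4A-AS1 coincides with it. The letters TATAAA stood 16 to 40 bases before the start, on the strand of the gene, in 2 of 24 host genes, SNHG19 and SNHG7, and in 2.30% of all promoters. Both pairs were noticed after the sequences were read.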
